A study of Homo sapiens with 32 samples.

Results

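The 3 aldo-keto reductase genes AKR1C1, AKR1C2 and AKR1C3 and 7 other genes known as targets of the transcription factor NRF2 were followed across 32 human acute myeloid leukaemia (AML) cell lines. The 7 others were NQO1, GCLM, HMOX1, TXNRD1, SLC7A11, SRXN1 and OSGIN1. These 10 genes were taken by symbol from the 19775 genes that the arrays measured with a probe set of a single symbol, and they were chosen with results of these data in view. A gene's level is log2(signal + 16) of its brightest probe set. Probe sets were chosen by their mean level over the 32 lines, so levels are given below as a description. AKR1C1 had 6 probe sets, AKR1C2 4, NQO1, GCLM and SLC7A11 3 each, TXNRD1 2 and the other 4 genes 1 each. Of these 24 probe sets, 1555854_at was annotated to both AKR1C1 and AKR1C2 and was chosen for neither. The choice was close in AKR1C2, where the chosen probe set had a mean of 7.67 and the next 7.63, in SLC7A11 (10.09 and 10.00) and in AKR1C1 (8.79 and 8.57), and less so in NQO1 (8.84 and 8.28).

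The series measured total RNA of each line on 1 Affymetrix expression array of 54675 probe sets, and its design text pairs expression with the lines' sensitivity to inhibitors of the PIM kinases. All lines were bought from cell banks, are established AML lines and had no treatment. By the growth protocols, 21 lines grew in RPMI 1640 and 4 in IMDM (OCI-M1, OCI-M2, SH-2 and SHI-1), 3 in alpha-MEM to which GM-CSF or SCF was added (OCI-AML2, OCI-AML3 and OCI-AML5), and F-36P in RPMI 1640 supplemented with 5 ng/ml IL-3. The protocols name no medium for MV4-11, MOLM-13 and MOLM-16. HL-60 and its subline PLB-985, and KG-1 and its subline KG-1A, were averaged for tests and correlations, which left 30 units. Since each line has 1 array, p-values measure the spread between lines, and precision is limited by how many arrays there are.

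The deposited signals had been scaled to a common trimmed mean, between 500 and 500.1 on each array. GF-D8 and NOMO-1 had median signals of 243.3 and 198.4, against 68.2 to 115.4 on the other 30 arrays. On 8 arrays the 3'/5' ratio of the GAPDH control probe sets, a sign of RNA integrity, was above 2. PTPRC, the pan-leukocyte marker CD45, lay above the array's median in all 32 lines (8.71 to 13.80). The mean level of 12 stromal and epithelial markers ran from 5.67 in SH-2 to 7.57 in HNT-34, with EPCAM as high as 13.27 in OCI-M2.

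NRF2, encoded by NFE2L2, is held in the cytoplasm and marked for degradation by KEAP1. When electrophiles or oxidants modify KEAP1, NRF2 accumulates, pairs with a small MAF protein and binds antioxidant response elements in the promoters and enhancers of genes for glutathione synthesis, thioredoxin reduction and detoxification. The AKR1C genes lie side by side in a cluster and encode NADPH-dependent reductases of ketosteroids, prostaglandins and reactive carbonyls, and AKR1C1 to AKR1C3 are widely used as readouts of NRF2 in human cells. AKR1C3 is also known in myeloid leukaemia cells as a prostaglandin D2 11-ketoreductase.

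On GRCh38.p14, AKR1C1 lies at chr10:4963415-4983283, AKR1C2 at chr10:4987775-5018000 and AKR1C3 at chr10:5048781-5107686. The start regions are shown because the results below turn on which of these genes were high in the same lines, and the windows differ between them in how alike they are. Each RefSeq window holds 250 bases before and 50 bases after a transcript start, 5′ to 3′ on the gene's strand. The AKR1C1 window is chr10:4963165-4963464 on the plus strand, the AKR1C2 window is chr10:5003808-5004107 on the minus strand, and the AKR1C3 window is chr10:5048531-5048830 on the plus strand. The AKR1C2 window thus holds a start inside the span of that gene, which reaches farther upstream, to 5018000. Capitals mark bases that differ from AKR1C1 within the aligned stretch of a pairwise alignment. Bases beyond that stretch are also in lower case, and bases missing against AKR1C1 are not marked.
AKR1C1: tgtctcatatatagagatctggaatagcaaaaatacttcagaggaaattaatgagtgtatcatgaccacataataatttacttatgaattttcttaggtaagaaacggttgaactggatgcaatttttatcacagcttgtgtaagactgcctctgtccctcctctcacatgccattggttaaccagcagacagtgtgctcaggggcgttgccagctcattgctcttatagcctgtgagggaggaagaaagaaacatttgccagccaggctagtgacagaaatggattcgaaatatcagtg
AKR1C2: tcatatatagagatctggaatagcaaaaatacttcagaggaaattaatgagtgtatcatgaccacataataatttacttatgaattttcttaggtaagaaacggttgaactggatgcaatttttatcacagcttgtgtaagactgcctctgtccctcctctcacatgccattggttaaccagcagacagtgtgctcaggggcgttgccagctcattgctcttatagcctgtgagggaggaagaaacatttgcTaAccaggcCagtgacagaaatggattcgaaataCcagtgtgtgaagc
AKR1C3: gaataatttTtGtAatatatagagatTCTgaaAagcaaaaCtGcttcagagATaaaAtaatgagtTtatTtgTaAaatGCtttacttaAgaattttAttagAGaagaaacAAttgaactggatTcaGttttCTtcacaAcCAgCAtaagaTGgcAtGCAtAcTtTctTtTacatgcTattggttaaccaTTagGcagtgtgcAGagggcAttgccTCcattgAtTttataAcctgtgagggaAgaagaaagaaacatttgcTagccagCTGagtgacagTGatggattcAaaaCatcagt
The AKR1C2 window was identical to that of AKR1C1 at 288 of 296 aligned positions (97.3%), and the AKR1C3 window at 227 of 300 (75.7%). Gaps account for 4 of the differing positions in AKR1C2 and for 9 in AKR1C3.

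A search of both strands for TGACNNNGC, the core of the antioxidant response element, found no match in these AKR1C windows. The windows reach only 250 bases before a start, and sequence farther away was not searched. A window without a match thus does not show that the gene lacks the element. The motif was present in 13.3% of 35116 RefSeq promoter windows of the same length. Windows were at hand for 8 of the 10 genes, and matches lay only in those of GCLM and TXNRD1, so that of NQO1 held none either. These 2 genes also had the highest correlation of any pair of targets outside the AKR1C cluster (r = 0.535 over 30 units). That correlation was 0.271 without NOMO-1 and GF-D8, and whether the motif bears on it was not tested. The capitals mark the match, the strand is given relative to the gene, and the position, counted from the transcript start, is that of the match's base farthest upstream.
GCLM, opposite strand, window chr1:93909381-93909680, position -34: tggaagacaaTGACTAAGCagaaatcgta
TXNRD1, same strand, window chr12:104215529-104215828, position -99: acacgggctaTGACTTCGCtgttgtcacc
TXNRD1, opposite strand, window chr12:104215529-104215828, position -8: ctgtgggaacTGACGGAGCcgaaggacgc
TXNRD1, opposite strand, window chr12:104286782-104287081, position -102: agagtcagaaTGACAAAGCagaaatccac
The form TGACTCAGC, a special case of the same motif, was in 0.561% of all windows and in none of these. The hexamer AGATAA, bound by erythroid transcription factors, was in 10.3% of windows and in that of AKR1C3 at position -201.

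AKR1C1, the 20-alpha-hydroxysteroid dehydrogenase of the family, ranged from 5.57 in SKM-1 through a median of 8.41 to 14.29 in F-36P. AKR1C2, the bile-acid binding and dihydrotestosterone-reducing member, ranged from 4.66 in NB-4 through a median of 7.30 to 13.96 in F-36P. AKR1C3, the prostaglandin F synthase and 17-beta-hydroxysteroid dehydrogenase, ranged from 4.08 in SKM-1 through a median of 6.57 to 13.29 in SET2. The spread over units ranked 467 for AKR1C1, 109 for AKR1C2 and 287 for AKR1C3 among 15455 tested genes. The same 4 lines held the highest AKR1C1 and AKR1C2 levels, and 3 of them were erythroleukaemia lines by origin (F-36P, OCI-M1 and OCI-M2) and the other, SET2, a megakaryoblastic line. Origin was not among the sample labels used here and was not compared over the remaining lines, so whether it goes with AKR1C1 was not tested. HEL and MOLM-16, whose erythroid markers were about as high (below), had AKR1C1 at 8.57 and 8.82.

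In these 4 lines AKR1C1 was at 14.29 in F-36P, 13.93 in SET2, 13.13 in OCI-M1 and 12.79 in OCI-M2. AKR1C2 was at 13.96, 13.88, 13.03 and 12.70 in the same order, and AKR1C3 at 10.38, 13.29, 11.91 and 10.90. The next line, KMOE-2, had 11.04 for AKR1C1, 10.15 for AKR1C2 and 7.56 for AKR1C3. The top of the AKR1C1 order was thus set apart from KMOE-2 by a gap of more than 1 log2 unit, while below it neighbours mostly lay closer together, and with 1 array per line no neighbour can be tested against the next. By medium, AKR1C1 had a median of 10.94 in the 4 IMDM lines and 7.63 in the 21 RPMI 1640 lines, the ranges overlapped, and the part of the medium in these levels was not tested.

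**Figure D1:**
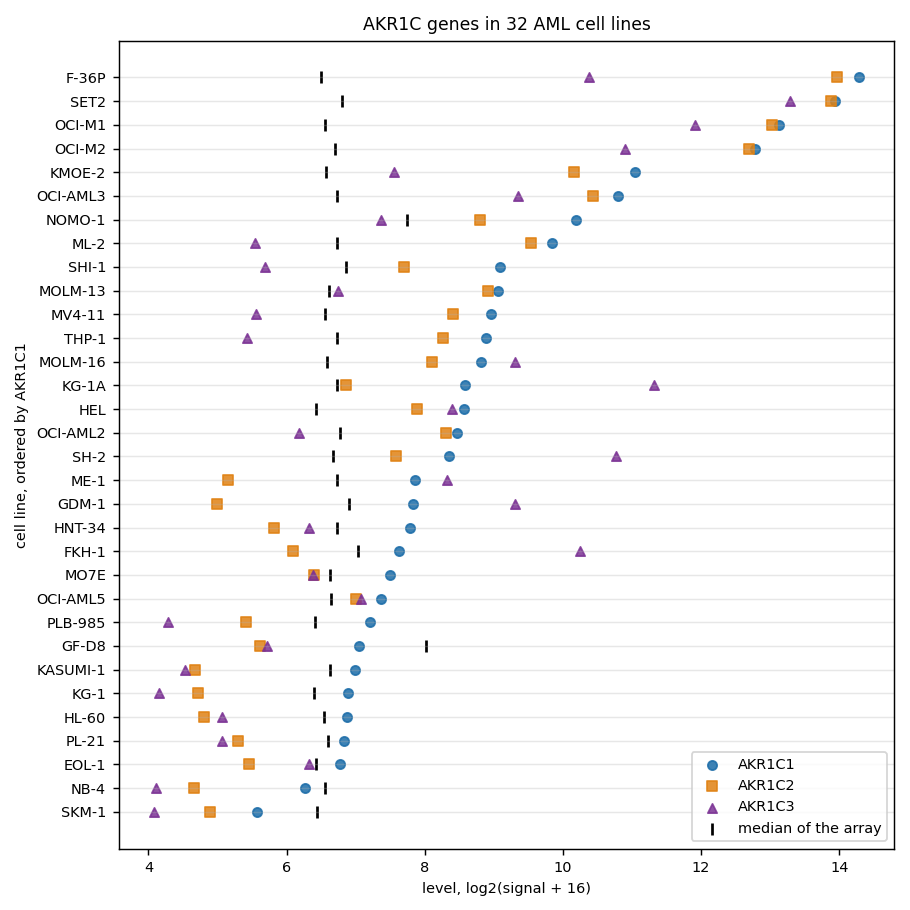
Levels of AKR1C1, AKR1C2 and AKR1C3 on the log2(signal + 16) scale (horizontal) in 32 AML cell lines (vertical, ordered by AKR1C1), 1 point per gene and line. F-36P, SET2, OCI-M1 and OCI-M2 stand at the top for AKR1C1 and AKR1C2, while KG-1A reaches 11.31 for AKR1C3 with AKR1C2 at 6.86.

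The cluster's genes were not always high together. Against each array's median, AKR1C2 and AKR1C3 were both above it in 12 lines and both below it in 11. AKR1C2 was above and AKR1C3 below in 6 lines, ML-2, THP-1, MV4-11, OCI-AML2, NOMO-1 and SHI-1. The reverse held in 3 lines, GDM-1, ME-1 and FKH-1. ML-2, for example, had 9.54 for AKR1C2 and 5.54 for AKR1C3, and FKH-1 had 6.10 and 10.24. NOMO-1 fell in this group against a raised array median of 7.74. Its AKR1C3 level of 7.36 was above the median of that gene over lines, 6.57. The GAPDH ratio was above 2 on the arrays of ML-2 (5.97), THP-1 (2.42), NOMO-1 (2.84) and GDM-1 (6.66), and its part in these departures was not tested.

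The widest departure was between a subline and its parent. AKR1C3 was at 11.31 in KG-1A, the undifferentiated subline, and at 4.15 in KG-1, a difference of 7.16 log2 units that ranked 9 by size among 15455 tested genes, whose median absolute difference was 0.469. AKR1C2 was higher in KG-1A by 2.15 and AKR1C1 by 1.69, and the other 7 genes differed by -0.53 to 0.83. AKR1C3 therefore differed between lines of the same origin by most of its range over all lines, a difference with no replicate check. Between PLB-985 and HL-60 the differences of the AKR1C genes were -0.79 for AKR1C3, 0.34 for AKR1C1 and 0.61 for AKR1C2, against a median absolute difference of 0.579.

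Over 30 units the level of AKR1C1 correlated with that of AKR1C2 at r = 0.97 (Spearman's rho 0.93) and with that of AKR1C3 at r = 0.72 (rho 0.61). AKR1C2 and AKR1C3 correlated at r = 0.67 (rho 0.57). Without the 4 units highest in AKR1C1, r was 0.92, 0.41 and 0.30 over 26 units. AKR1C1 and AKR1C2 thus stayed alike without the high units, whereas AKR1C3 was much less like them. The chosen AKR1C1 and AKR1C2 probe sets carry the suffix x_at, by which Affymetrix marks probes that can match more than 1 transcript, so each may hold signal of the other gene. Other AKR1C1 probe sets correlated with the chosen one at r = 0.96 (216594_x_at), 0.73 (217626_at), 0.11 (1555856_s_at) and -0.18 (1555855_at) over 32 lines.

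NQO1 (chr16:69709401-69726560), the quinone reductase often used as the classic NRF2 readout, ranged from 6.82 in OCI-M2 through a median of 8.71 to 11.04 in NB-4, an 18.6-fold range. The line with the lowest NQO1 was thus among the 4 highest in AKR1C1, and NB-4, highest in NQO1, was the second lowest in AKR1C1 at 6.26. NQO1 was at 8.17 in F-36P, 9.96 in SET2 and 8.86 in OCI-M1, so the AKR1C-high lines lay on both sides of its median. The next NQO1 probe set correlated with the chosen one at r = 0.79, and its correlation with the GAPDH ratio was 0.49, against 0.14 for the chosen one.

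The glutathione and cystine arm came next. GCLM (chr1:93885199-93909430), the modifier subunit of glutamate-cysteine ligase, ranged from 7.66 in NOMO-1 through a median of 10.26 to 12.72 in HEL, with OCI-M1 at 11.76 and F-36P at 11.72. SLC7A11 (chr4:138164097-138242349), the cystine-glutamate antiporter that ATF4 also drives, ranged from 7.64 in KASUMI-1 through a median of 10.03 to 12.43 in F-36P, with KMOE-2 at 12.30. F-36P was thus near the top for both genes, while SET2 had SLC7A11 at 9.67, below its median.

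The thioredoxin and peroxiredoxin arm followed. TXNRD1 (chr12:104215779-104350307), cytosolic thioredoxin reductase, ranged from 10.19 in GF-D8 through a median of 12.10 to 12.88 in NB-4, a 6.45-fold range that ranked 12143 by spread over units among 15455 tested genes. SRXN1 (chr20:646615-653200), sulfiredoxin, which restores oxidised peroxiredoxins, ranged from 7.06 in MO7E through a median of 10.32 to 11.38 in HEL. MO7E stood well below the next line, NOMO-1, at 8.98, and the lowest TXNRD1 levels came from the 2 arrays of high median signal. The level of TXNRD1 correlated with the array's median at r = -0.74, and that of GCLM at -0.62.

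HMOX1 (chr22:35381096-35394207), the haem oxygenase that BACH1 represses in the absence of haem, ranged from 4.77 in HL-60 through a median of 6.69 to 11.72 in OCI-M2. HNT-34 was second at 11.47, followed by MOLM-16 at 9.47 and GF-D8 at 9.40, so the 2 highest lines stood apart from the rest, and HNT-34 had AKR1C1 at only 7.78. OSGIN1 (chr16:83953240-83966332), an oxidative stress-induced growth inhibitor, ranged from 4.50 in MO7E through a median of 4.67 to 8.98 in GF-D8 and was below the array's median in 31 of 32 lines. It did not pass the filter on low values, so 9 of the 10 genes were tested, and its 2 highest levels, in GF-D8 and NOMO-1, came from the arrays of high median signal.

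**Figure D2:**
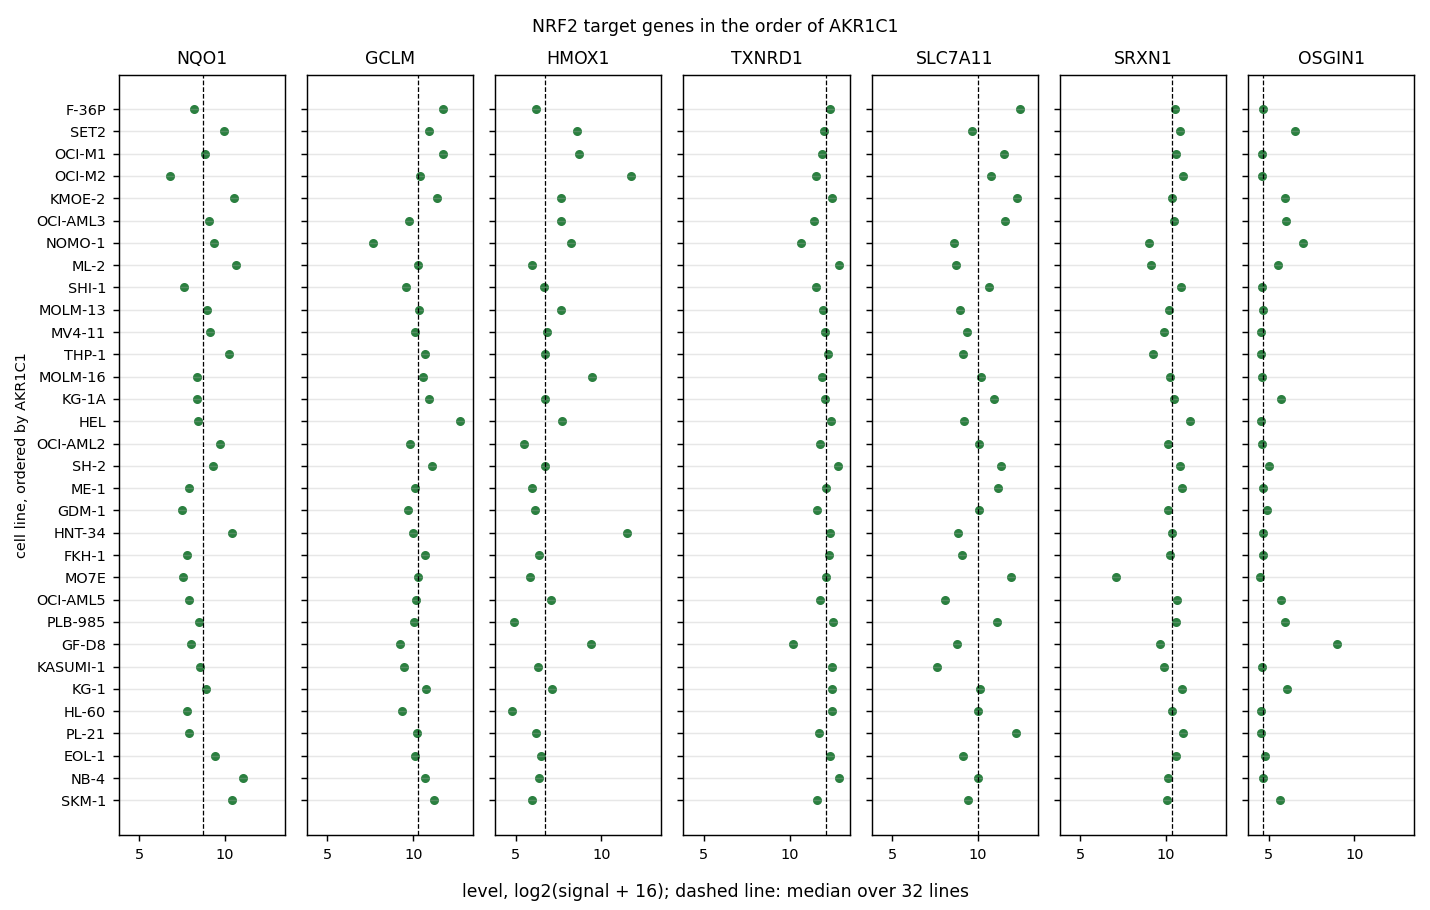
Levels of the 7 NRF2 targets outside the AKR1C cluster on the log2(signal + 16) scale (horizontal, 1 panel per gene, dashed line at the median of 32 lines), with lines ordered by AKR1C1 as in the plot of AKR1C levels. The order of AKR1C1 is not repeated in the panels: OCI-M2 has the lowest NQO1 at 6.82 and the highest HMOX1 at 11.72.

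The next question was whether the AKR1C genes moved with the other NRF2 targets. The 21 correlations between an AKR1C gene and another target had a median r of 0.17 over 30 units, from -0.26 for AKR1C3 with NQO1 to 0.39, with 16 above 0 and none above 0.5. The median was 0.22 without NOMO-1 and GF-D8, 0.22 on arrays of low GAPDH ratio and 0.11 without the 4 units highest in AKR1C1. HMOX1 gave r = 0.39 with AKR1C1, 0.38 with AKR1C2 and 0.39 with AKR1C3, and SLC7A11 gave 0.36, 0.32 and 0.33. The 21 pairs include those of OSGIN1, which did not pass the filter on low values and gave 0.04, 0.04 and 0.01. Over the 6 tested targets alone the median r was 0.21 with AKR1C1 and 0.34 with AKR1C3. For scale, r over all pairs of tested genes had a median of 0.01 and quartiles of -0.19 and 0.21.

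The 7 targets outside the cluster were no more alike among themselves by this measure. Their 21 pairs had a median r of 0.11, with 11 above 0. GCLM and TXNRD1 had the highest value, r = 0.54 (rho 0.41), which was 0.27 without NOMO-1 and GF-D8. TXNRD1 and OSGIN1 had the lowest, r = -0.61 (rho -0.10), which was -0.03 without these 2 arrays. GCLM also correlated with SRXN1 at 0.37 and with SLC7A11 at 0.33, and NQO1 with TXNRD1 at 0.35. All these correlations share their arrays and the arrays' scaling.

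**Figure D3:**
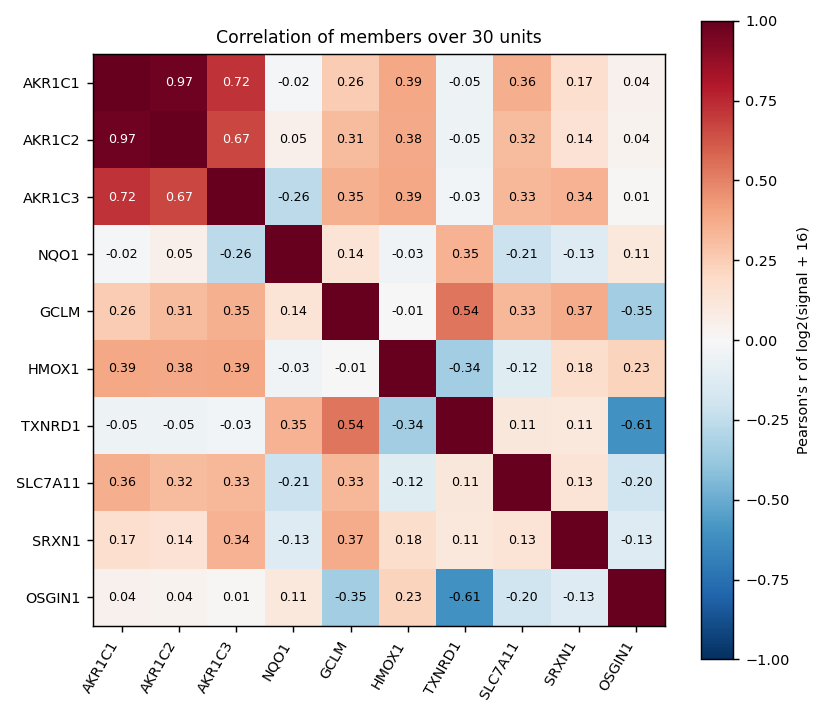
Pearson's r of log2(signal + 16) between each pair of the 10 genes over 30 units, as a heat map with r printed in each cell and coloured from -1 to 1. The block of AKR1C1, AKR1C2 and AKR1C3 holds 0.97, 0.72 and 0.67, while the cells that join it to the other 7 genes hold -0.26 to 0.39.

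A linear model across all genes (limma) took each gene's slope on the level of AKR1C1, as log2 units per log2 unit, over 30 units. Of 15454 genes, 238 passed an adjusted p of 0.05 (1.54%), 186 with a positive slope (1.2%). AKR1C2 had a slope of 1.20 ± 0.057 (SE; adjusted p = 3.71e-16) and AKR1C3 of 0.78 ± 0.14 (adjusted p = 0.00189). None of the 6 tested targets outside the cluster passed in limma, and 2 of the 6 had an unadjusted p below 0.05, as had 1962 of all 15454 genes. Their slopes were 0.28 ± 0.12 for HMOX1 (adjusted p = 0.3), 0.21 ± 0.098 for SLC7A11 (adjusted p = 0.352), 0.10 ± 0.073 for GCLM (adjusted p = 0.618) and 0.06 ± 0.066 for SRXN1 (adjusted p = 0.804). NQO1 and TXNRD1 had slopes of -0.0086 ± 0.09 and -0.013 ± 0.049 (adjusted p = 0.984 and 0.961). Median centring changed the sign of both, and quantile normalization that of NQO1.

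On the level of AKR1C3, 402 genes passed in limma (2.6%), 290 of them upward (1.88%). AKR1C1 had a slope of 0.66 ± 0.11 (adjusted p = 0.00305) and AKR1C2 of 0.77 ± 0.15 (adjusted p = 0.00641). None of the 6 targets passed, with 2 below an unadjusted p of 0.05, as were 2492 of all 15454 genes, and the highest slope was that of HMOX1 at 0.26 ± 0.11 (adjusted p = 0.23). SLC7A11 had 0.18 ± 0.091 (adjusted p = 0.343), GCLM 0.13 ± 0.065 (adjusted p = 0.304) and SRXN1 0.12 ± 0.058 (adjusted p = 0.33). TXNRD1 had -0.0060 ± 0.045 (adjusted p = 0.976) and NQO1 -0.12 ± 0.080 (adjusted p = 0.515). Without the 2 units farthest from the median, AKR1C3 on AKR1C1 missed the threshold (slope 0.76, adjusted p = 0.0542), as did AKR1C1 on AKR1C3 (slope 0.55, adjusted p = 0.112) and AKR1C2 on AKR1C3 (adjusted p = 0.172). With any 1 unit left out all of these passed. A p above the threshold does not show that these genes are unrelated. The 95% intervals of the slope on AKR1C1, not adjusted over genes, were -0.19 to 0.17 for NQO1, -0.11 to 0.09 for TXNRD1 and -0.04 to 0.25 for GCLM. They were -0.07 to 0.20 for SRXN1, 0.01 to 0.41 for SLC7A11 and 0.03 to 0.52 for HMOX1.

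On the level of NQO1 no gene passed in limma (0%), and 825 had an unadjusted p below 0.05. None of the 8 other tested genes of the set passed, and none had an unadjusted p below 0.05. TXNRD1 came nearest, with a slope of 0.18 ± 0.093 (adjusted p = 0.931), and AKR1C3 had -0.57 ± 0.38 (adjusted p = 0.932). With the next NQO1 probe set 117 genes passed, and still none of these 8.

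**Figure D4:**
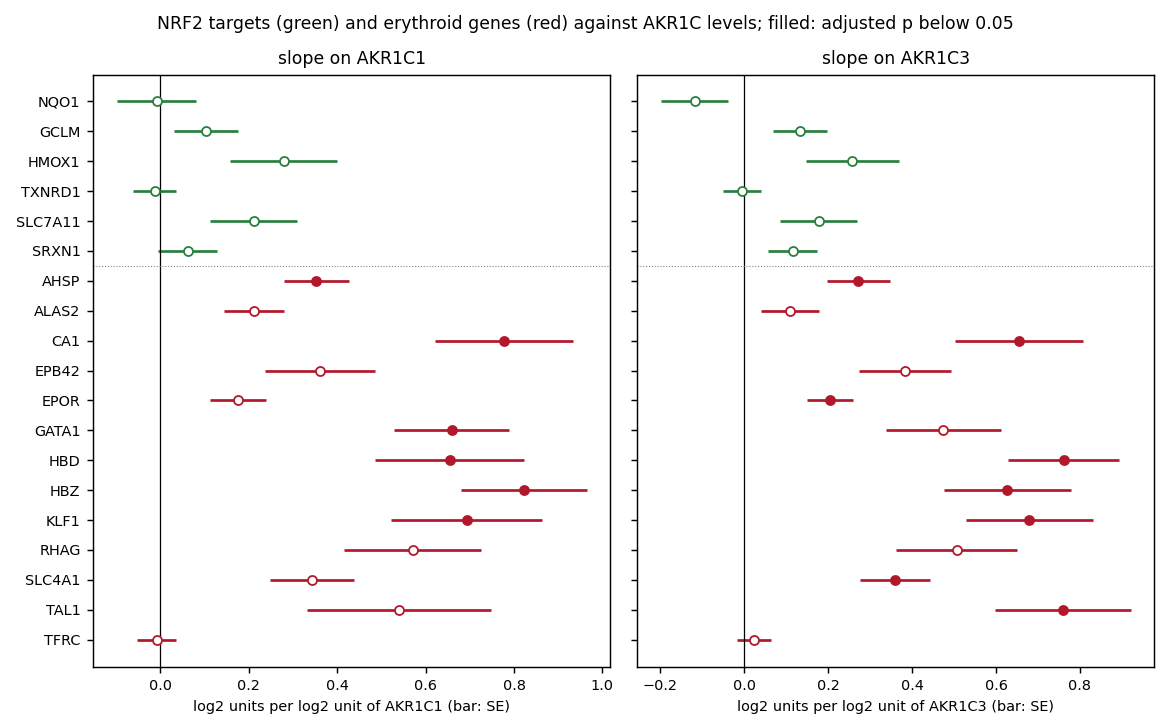
Slopes on AKR1C1 and on AKR1C3 (horizontal, log2 units per log2 unit, bars are standard errors, n = 30 units) for the 6 tested NRF2 targets outside the cluster (green) and the 13 tested erythroid genes (red). Filled points mark an adjusted p below 0.05: there are none among the 6 targets, against 6 of 13 erythroid genes on AKR1C1 and 8 of 13 on AKR1C3. Over all tested genes 1.54% and 2.6% passed.

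Other genes of the pathway were read from lists. Of 29 tested further NRF2 targets (35 listed), 1 rose with AKR1C1 and none fell, and 19 had positive slopes. An unadjusted p below 0.05 in limma, in either direction, was seen for 7 of them with AKR1C1 and 6 with AKR1C3. Over all 15454 genes these counts were 1962 and 2492. The list's median slope on AKR1C1 was 0.03, against -0.0013 over all genes. The gene that passed was BLVRB, biliverdin reductase B, abundant in red cell precursors, at 0.60 ± 0.12 (adjusted p = 0.00656). Without F-36P and SET2 its slope was 0.58 and it missed the threshold (adjusted p = 0.126). GCLC, the catalytic partner of GCLM, had 0.03 ± 0.054 (adjusted p = 0.918). With AKR1C3, BLVRB rose at 0.58 ± 0.11 (adjusted p = 0.00402) and so did FECH, ferrochelatase, the last enzyme of haem synthesis, at 0.22 ± 0.058 (adjusted p = 0.0314). Both genes that passed on this list act in haem or bilin metabolism. The FECH call was lost with 32 separate lines (adjusted p = 0.0533), without the arrays of high GAPDH ratio (adjusted p = 0.106) and with that ratio as a covariate (adjusted p = 0.104), and neither gene passed with AKR1C3 once SET2 and OCI-M1 were left out.

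Of 13 tested NRF2 regulators (14 listed), none passed with AKR1C1 in limma (1 had an unadjusted p below 0.05) and 11 had positive slopes, with a median of 0.05. NFE2L2, which encodes NRF2, had 0.08 ± 0.060 (adjusted p = 0.639), and KEAP1 had 0.05 ± 0.078 (adjusted p = 0.886). With AKR1C3, NFE2L2 had 0.11 ± 0.053 (adjusted p = 0.278) and KEAP1 had 0.09 ± 0.071 (adjusted p = 0.591). Of the 13 regulators, 5 had an unadjusted p below 0.05 with AKR1C3 in limma, as had 2492 of all 15454 genes, and 11 had positive slopes. NFE2L2 and KEAP1 were both above the array's median in all 32 lines, NFE2L2 at 9.57 to 13.05 and KEAP1 at 9.38 to 13.67. With AKR1C3, NFE2 rose at 0.35 ± 0.094 (adjusted p = 0.0333), a subunit of the erythroid and megakaryocytic factor NF-E2, a call lost with 32 separate lines (adjusted p = 0.148), without the arrays of high GAPDH ratio (0.0856), with that ratio as a covariate (0.0599) and without SET2 and OCI-M1 (0.271), and held in 22 of 30 fits with 1 unit left out. NRF2 is regulated largely through protein stability, which these RNA levels do not measure. Of 14 tested ATF4 targets, none passed with AKR1C1 or AKR1C3 in limma (6 and 1 had an unadjusted p below 0.05), while 13 had positive slopes with AKR1C1 (median 0.09) and 7 with AKR1C3 (median 0.01). The unadjusted counts over all 15454 genes were 1962 and 2492. Of 11 other aldo-keto reductases listed, AKR1C4 of the same cluster among them, only AKR1E2, AKR7A2 and AKR7A3 were tested. None of the 3 passed with AKR1C1 or AKR1C3 in limma, and none had an unadjusted p below 0.05.

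Part of the erythroid markers rose with the AKR1C genes. Over all genes, 1.2% passed upward with AKR1C1 and 1.88% with AKR1C3. With AKR1C1, 6 of 13 tested erythroid markers (20 listed) passed upward and none downward, 12 had positive slopes, and the median slope was 0.54. They included HBZ, the embryonic zeta globin, at 0.82 ± 0.14 (adjusted p = 0.00189), GATA1, the erythroid and megakaryocytic transcription factor, at 0.66 ± 0.13 (adjusted p = 0.00599), CA1, carbonic anhydrase 1, at 0.78 ± 0.16 (adjusted p = 0.00656), and AHSP, which stabilises free alpha globin, at 0.35 ± 0.074 (adjusted p = 0.009). With AKR1C3, 8 of the 13 passed upward, among them HBD, delta globin, at 0.76 ± 0.13 (adjusted p = 0.00305), TAL1 at 0.76 ± 0.16 (adjusted p = 0.0109), KLF1, a globin activator, at 0.68 ± 0.15 (adjusted p = 0.0156), and SLC4A1, the band 3 anion exchanger, at 0.36 ± 0.083 (adjusted p = 0.0168). HBZ was above the array's median in only 5 of 32 lines (median level 4.48, highest 12.62 in F-36P), and SLC4A1 in 9. The slopes of HBZ and SLC4A1 thus set few high lines against the rest. The other erythroid genes named here were above it in 15 (HBD) to 30 (CA1) lines. With NQO1 none of the 13 passed in limma, none had an unadjusted p below 0.05, and 1 had a positive slope. The lists were drawn up with earlier results of these data known, so their counts are descriptions.

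These erythroid counts rest on few lines. Without F-36P and SET2 none of the 13 passed with AKR1C1, though 12 slopes were positive and 10 had an unadjusted p below 0.05. Without SET2 and OCI-M1 none passed with AKR1C3, with 13 positive and 11 below an unadjusted p of 0.05. Leaving out SET2 alone gave 3 with AKR1C1 and 2 with AKR1C3. Without NOMO-1 and GF-D8 the counts were 9 and 11, and without the arrays of high GAPDH ratio 8 and 4. Over all 15454 genes, 41 passed with AKR1C1 without F-36P and SET2, and 12 with AKR1C3 without SET2 and OCI-M1. Unadjusted counts over all genes were not taken in those fits.

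Markers of other lineages were read the same way. With AKR1C1 none of 10 myeloid, 5 megakaryocyte, 8 stromal and epithelial, 3 hepatic or 5 lymphoid markers passed in limma (2, 1, 0, 1 and 1 had an unadjusted p below 0.05). Over all 15454 genes the unadjusted count was 1962. With AKR1C3, MPO, the myeloperoxidase of granulocyte precursors, fell at -0.88 ± 0.24 (adjusted p = 0.0382), ITGA2B, platelet integrin alpha-IIb, rose at 0.64 ± 0.17 (adjusted p = 0.0385), and SERPINA1, the antitrypsin of liver and monocytes, fell at -0.39 ± 0.10 (adjusted p = 0.0351). Without the arrays of high GAPDH ratio all 3 missed the threshold with slopes of -0.86, 0.64 and -0.44. They also missed it in limma with that ratio as a covariate (adjusted p = 0.121, 0.0873 and 0.0634) and without SET2 and OCI-M1 (adjusted p = 0.231, 0.218 and 0.145). MPO and SERPINA1 missed it with a pseudocount of 64 as well, and ITGA2B with quantile normalization. With 1 unit left out, MPO, ITGA2B and SERPINA1 passed in 18, 18 and 22 of 30 fits.

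An erythroid score, the mean of the list's levels after centring each gene, correlated with AKR1C1 at r = 0.68 (rho 0.52), with AKR1C2 at 0.64 (rho 0.46) and with AKR1C3 at 0.70 (rho 0.62) over 30 units. Without the 4 units highest in AKR1C1 these were 0.19, 0.13 and 0.40 over 26 units. The score was 3.45 in SET2, 3.20 in OCI-M2, 2.79 in HEL, 2.67 in F-36P, 2.58 in MOLM-16 and 2.28 in OCI-M1. HEL and MOLM-16 thus had erythroid scores like those of the AKR1C-high lines with AKR1C1 at only 8.57 and 8.82. KMOE-2, next in AKR1C1 after the 4 high lines, had a score of 0.24. Of the other targets, HMOX1 correlated with the score at 0.53, GCLM at 0.42 and NQO1 at -0.29.

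**Figure D5:**
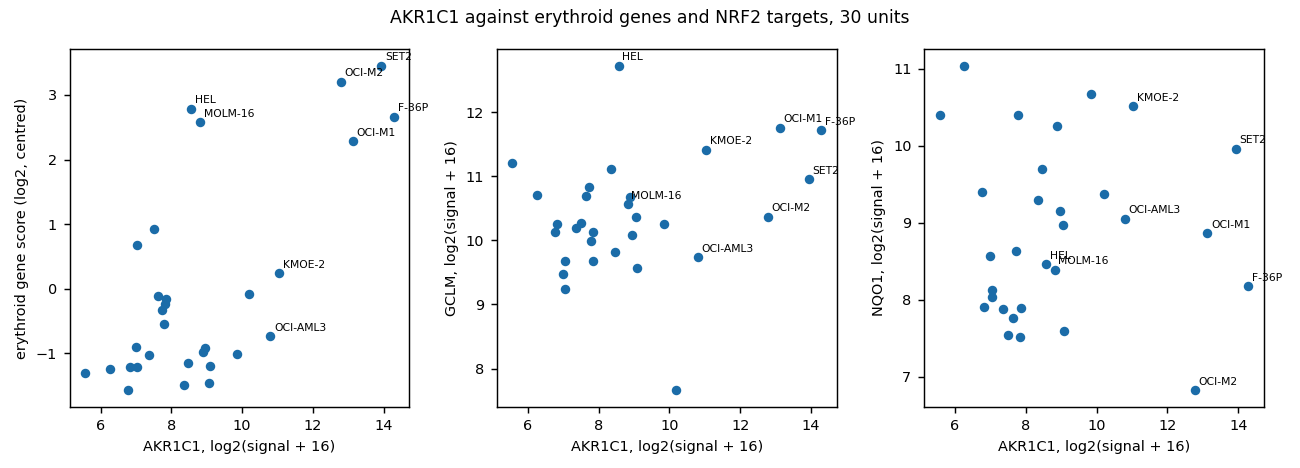
AKR1C1 level (horizontal, log2(signal + 16)) in 30 units against the erythroid score, GCLM and NQO1 (vertical, 1 panel each, log2 units), 1 point per unit. In the erythroid panel F-36P, SET2, OCI-M1 and OCI-M2 are high on both axes while HEL and MOLM-16 are high in score (2.79 and 2.58) with AKR1C1 at 8.57 and 8.82.

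Among tested genes outside the set, those most like AKR1C1 over 30 units were IFI27 (r = 0.79, rho 0.53), FGF13 (0.78, rho 0.39), APOE (0.77, rho 0.62), TLCD4 (0.76, rho 0.49) and OPTN (0.76, rho 0.70). Those most like AKR1C3 were BEX4 (r = 0.82, rho 0.77), NEO1 (0.77, rho 0.60), MPP1 (0.75, rho 0.71), DNAJC6 (0.75, rho 0.75) and NHSL3 (0.75, rho 0.72). Those most like NQO1 were POLA2 (r = 0.62, rho 0.67), FEN1 (0.58, rho 0.56), RRP7A (0.58, rho 0.56), COPRS (0.58, rho 0.54) and STS (0.57, rho 0.58). None of these 15 genes was on the list of further NRF2 targets.

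Because the series concerned PIM inhibitors, the genes were also read against the RNA of the 3 PIM kinases. On PIM1, 1 of 15454 genes passed in limma (0.00647%) and none of the 9 tested genes of the set, with 1 below an unadjusted p of 0.05, AKR1C3 at 0.46 ± 0.19 (adjusted p = 0.608). On PIM2, 229 genes passed (1.48%), 112 of them upward (0.725%), and 1 of the 9, AKR1C2, rose, at 1.80 ± 0.48 (adjusted p = 0.0482). AKR1C1 had 1.41 ± 0.39 (adjusted p = 0.0569), AKR1C3 1.51 ± 0.43 (adjusted p = 0.0617) and GCLM 0.60 ± 0.16 (adjusted p = 0.0512), so the slopes of the 3 AKR1C genes were of like size and lay on either side of the threshold. The AKR1C2 call held in 10 of 30 fits that left out 1 unit, with slopes of 1.60 to 2.09 and adjusted p from 0.0249 to 0.161. The call was lost without the filter, with 32 separate lines and without NOMO-1 and GF-D8. It was also lost without the arrays of high GAPDH ratio, with that ratio as a covariate and without OCI-M1 and HEL. Under these settings that lost the call, the slope of AKR1C2 was 1.76 to 2.24. On PIM3, 88 genes passed (0.569%), 45 of them downward (0.291%), and 1 of the 9, AKR1C3, fell, at -2.51 ± 0.61 (adjusted p = 0.0468). That call held in 12 of 30 fits that left out 1 unit, with slopes of -3.07 to -2.32. Its adjusted p was 0.0619 without the filter, 0.112 after median centring and 0.0634 without NOMO-1 and GF-D8. It was 0.4 without the arrays of high GAPDH ratio and 0.949 with the ratio as a covariate. The slope of AKR1C3 was between -2.10 and -3.03 under these settings.

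Of the listed genes, 8 passed on PIM2. The erythroid genes CA1, EPB42, HBZ and KLF1 and the further NRF2 targets ABCC4 and BLVRB rose, and the myeloid genes CSF3R and MPO fell. BLVRB had 1.38 ± 0.34 on PIM2 (adjusted p = 0.0357) and ABCC4, a drug and cyclic nucleotide exporter, 1.33 ± 0.30 (adjusted p = 0.0239). With the GAPDH ratio as a covariate all 8 missed the threshold (adjusted p = 0.0507 to 0.152), as they did without OCI-M1 and HEL (adjusted p = 0.195 to 0.236). On PIM3, BLVRB fell at -2.27 ± 0.48 (adjusted p = 0.0363), and it was the 1 listed gene to pass. Its slope was -1.34 after median centring (adjusted p = 0.248), -2.17 without NOMO-1 and GF-D8 (adjusted p = 0.0529), -1.46 without the arrays of high GAPDH ratio (adjusted p = 0.529) and -1.60 with the ratio as a covariate (adjusted p = 0.998).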

How the data were processed

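The authors deposited 1 value table of probe set intensity on a linear scale for 32 arrays, made with Affymetrix Expression Console per the submitters' processing notes; its version and summarization method are not given in the sources used here. Intensity was transformed as log2(signal + 16), a scale on which the change of low signals is understated, with no further scaling of the deposited values. Probe sets were named from GEO's annotation of the platform, and where a gene had several of a single symbol the one with the highest mean was used. Genes exceeding 6.73, the overall median level, in at least 3 units were tested, 15455 in all.

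The members and gene lists were chosen with earlier results of these data known. The growth protocol's entry written KG1 with a question mark was read as KG-1A. The response to PIM inhibitors was not used here. For AKR1C1, AKR1C3, NQO1, PIM1, PIM2 and PIM3, limma 3.58.1 in R 4.3.3 (lmFit, eBayes with a trend) gave every tested gene's slope on that gene's level over 30 units, leaving out the gene itself; tests were two-sided with Benjamini-Hochberg adjustment over all genes, and each error after ± is a standard error. The model was tested on simulated data. Correlations carry no p because the members were chosen with results known.

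Besides the 10 members, the genes named are the 5 with the highest r with AKR1C1, AKR1C3 and NQO1 and up to 4 passing genes of each list and fit; NFE2L2, KEAP1, GCLC, PTPRC and EPCAM were named after their values were seen. The lists were further NRF2 targets, NRF2 regulators, aldo-keto reductases, ATF4 targets, erythroid, myeloid, megakaryocyte, stromal and epithelial, hepatic, and lymphoid markers. Alternatives were no filter, a pseudocount of 64, quantile normalization, median centring, 32 separate lines, leaving out NOMO-1 and GF-D8 or the 8 arrays of GAPDH ratio above 2, that ratio as a covariate, the next probe set, and leaving out each unit; leaving out the 2 units farthest from the median was added after seeing the data. Promoter windows were credited to RefSeq on GRCh38.p14 and aligned with Biopython 1.88. Plots were drawn with matplotlib 3.10.9 and pandas 2.3.3.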

Additional observations from a re-analysis of the deposited data

How the results depend on the processing

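None of NQO1, GCLM, HMOX1, TXNRD1, SLC7A11 and SRXN1 passed with AKR1C1 in any of 240 fits under 40 alternatives (lowest adjusted p 0.117, limma), with AKR1C3 in any of 234 (0.0866), and none of the 8 other members passed with NQO1 in any of 320 (0.142). The counts of passing genes moved more. For AKR1C1 (238) they were 391 without NOMO-1 and GF-D8, 458 with the next probe set and 41 without F-36P and SET2, the 2 units farthest from the median, and 106 to 361 with 1 unit left out: 114 without F-36P, 117 without SET2, 121 without OCI-M1, 106 without OCI-M2 and 361 without GF-D8. For AKR1C3 (402) they were 644 without NOMO-1 and GF-D8, 213 without the arrays of high GAPDH ratio, 194 with that ratio as a covariate, 12 without SET2 and OCI-M1, and 144 to 629 with 1 unit left out: 144 without SET2, 164 without OCI-M1, 245 without OCI-M2, 264 without HL-60 and PLB-985, and 629 without SH-2. AKR1C3 has a single probe set, so the next one could not be tried. For NQO1 (0) the count was 117 with the next probe set and 0 otherwise. For PIM1 (1) it was 3 with quantile normalization, 2 with median centring, with 32 lines, without NOMO-1 and GF-D8 or without the arrays of high GAPDH ratio, 5 without the 2 farthest units, and 1 to 3 with 1 unit left out. For PIM2 (229, 112 up and 117 down) it was 1737 with quantile normalization, 4091 with median centring (3532 up, 559 down), 123 without the arrays of high GAPDH ratio, 16 with the ratio as a covariate (2 up, 14 down), 0 without the 2 farthest units, and 0 without OCI-M1 to 404 without KMOE-2. For PIM3 (88, 43 up and 45 down) it was 22 with no filter (6 up, 16 down), 1056 with quantile normalization, 46 with median centring (45 up, 1 down), 540 with 32 lines, 31 without NOMO-1 and GF-D8, 0 without the arrays of high GAPDH ratio or with the ratio as a covariate, and 3 without NB-4 to 403 without NOMO-1. Slopes near 0 changed sign without passing. NQO1 on AKR1C1 became 0.0411 (quantile), 0.0254 (median centring) and 0.00907 (covariate), and -0.0575 to 0.0536 with 1 unit left out; TXNRD1 on AKR1C1 became 0.0399 (median centring), and -0.0372 to 0.00348. TXNRD1 on AKR1C3 became 0.00137 (pseudocount of 64), 0.013 (quantile), 0.0361 (median centring) and 0.0043 (without high GAPDH ratio), and -0.0255 to 0.0125. On NQO1, AKR1C1 became 0.152 (quantile), 0.0907 (median centring), 0.0377 (covariate) and 0.462 (2 farthest left out), and -0.201 to 0.224; HMOX1 became 0.00541 (32 lines), 0.0957 (without high GAPDH ratio), 0.346 (2 farthest left out) and 0.126 (next probe set), and -0.252 to 0.248; SRXN1 became 0.0945 (median centring) and 0.034 (without high GAPDH ratio). With the next NQO1 probe set, AKR1C2 and GCLM both became -0.145 and TXNRD1 -0.0042, and AKR1C2 ran from -0.0643 to 0.476 with 1 unit left out. The cause of these changes was not tested. Levels below an array's median, as for OSGIN1 in 31 lines, AKR1C3 in 17 and HMOX1 in 16, lie in the lower part of the signal range, where 1 array per line gives little order. No paired analysis was possible because each line has 1 array and the labels give no replicate numbers.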
